A study of Mus musculus with 2 samples.

Results

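The regions described here are 2271 distal chromatin accessibility peaks of control late retinal progenitor cells (RPCs) that had no counterpart in RPCs overexpressing Neurog3 (Ngn3-OE). They were selected on measured values from the deposited control peak list: no base of overlap with any Ngn3-OE peak, a summit more than 3 kb from every annotated transcript start, and a fold enrichment at or above 6.34, the median of all control peaks. The members make up 1.94% of the 117165 distinct control intervals. Of the 36153 control peaks that met the limits on distance and strength, called strong distal peaks below, 6.28% had no overlapping Ngn3-OE peak. The share was 11.2% (4041 peaks) where an overlap had to cover 50% of the control peak to count. The mirrored rule selected 2762 of 38235 strong distal Ngn3-OE peaks, a share of 7.22%. The lists give no read depth, so the part that unequal depth played in these shares, and in which peaks were found in 1 library, was not tested. Both groups came from mouse pups electroporated in vivo at postnatal day 1, with control or with Ngn3-OE plasmids, and the tissue was labelled retina and the cells retinal progenitor cells in both. GFP-positive cells were sorted 2 days later (DAE 2) and profiled by ATAC-seq, in which the Tn5 transposase tags open DNA. Each of the 2 groups was 1 library from a single biological sample. No test of the condition is therefore possible, and every interval below covers counting error only. In sorted bulk cells, a region that is less open in each cell and a region that is open in fewer cells cannot be told apart.

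Distal accessible regions, in introns or between genes, often act as enhancers, which bind combinations of transcription factors and regulate promoters that may lie far away. In the newborn retina, late RPCs still divide, and their progeny include Müller glia, rods and bipolar cells. SOX factors such as SOX2 and SOX9 are found in RPCs and Müller glia, OTX2 and CRX are homeodomain factors of photoreceptors and bipolar cells, and proneural bHLH factors, the family of Ngn3, bind E-boxes. SOX factors of the SOX8, SOX9 and SOX10 group can bind DNA as dimers on a pair of facing sites.

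The SOX motif, CCATTGT or CCTTTGT on either strand, exceeded its share in shared peaks by more than any other motif searched except ATTGT. For that reason its matches in some of the peaks named below are shown, within 50 bases of the summit. Other peaks named below also hold the SOX motif. ATTGT, called the SOX core below, is part of CCATTGT but not of CCTTTGT. Sequences are the plus strand of mm10 (GRCm38, RefSeq), and capitals mark the SOX motif or its complement.
Tex15 intron, chr8:33550487-33550587: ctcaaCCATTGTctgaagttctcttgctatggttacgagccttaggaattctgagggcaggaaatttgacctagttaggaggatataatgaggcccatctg
Near Gm41517 and Arid1b, chr17:4941563-4941663: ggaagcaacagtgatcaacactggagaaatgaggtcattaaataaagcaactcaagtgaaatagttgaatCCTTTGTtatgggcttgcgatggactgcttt
Dclk2 intron, near Gm37025, chr3:86833024-86833124: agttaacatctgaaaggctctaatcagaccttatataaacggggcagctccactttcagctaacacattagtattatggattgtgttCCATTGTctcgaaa
Near Gm45288 and Ttc29, chr8:78123568-78123668: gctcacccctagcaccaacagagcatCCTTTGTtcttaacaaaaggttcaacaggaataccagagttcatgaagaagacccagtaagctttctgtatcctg
Gm40264 intron, chr5:9059786-9059886: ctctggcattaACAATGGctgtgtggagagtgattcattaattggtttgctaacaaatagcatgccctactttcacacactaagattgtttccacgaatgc
Near Map4k4, chr1:39884917-39885017: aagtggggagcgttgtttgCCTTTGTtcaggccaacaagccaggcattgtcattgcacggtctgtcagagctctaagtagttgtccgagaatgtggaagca

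The next peaks hold a pair of SOX half-sites that face each other, the arrangement described below as the facing pair. Capitals mark the sites, ACAAA or ACAAT followed 5 to 7 bases later by ATTGT or TTTGT. Among members with a single place in the genome, and apart from peaks for which no sequence is shown, they have the highest fold enrichment of those whose pair lies within 50 bases of the summit.
Ephb1 intron, chr9:102069289-102069389: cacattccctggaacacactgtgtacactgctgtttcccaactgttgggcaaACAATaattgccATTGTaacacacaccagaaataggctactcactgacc
Near Sptbn1, chr11:30367553-30367653: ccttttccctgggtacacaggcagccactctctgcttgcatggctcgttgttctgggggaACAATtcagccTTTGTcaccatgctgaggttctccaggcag
Near Gm34215 and Sostdc1, chr12:36344279-36344379: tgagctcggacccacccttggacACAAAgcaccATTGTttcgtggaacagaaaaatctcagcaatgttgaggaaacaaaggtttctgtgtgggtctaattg
Near Gm47090 and Cwc15, chr9:14517442-14517542: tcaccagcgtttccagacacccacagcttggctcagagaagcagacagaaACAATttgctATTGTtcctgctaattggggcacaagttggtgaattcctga
Near Nbea and Mab21l1, chr3:55666086-55666186: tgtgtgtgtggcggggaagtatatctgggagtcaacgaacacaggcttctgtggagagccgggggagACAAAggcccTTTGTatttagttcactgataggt
Near Ptpre, chr7:135543223-135543323: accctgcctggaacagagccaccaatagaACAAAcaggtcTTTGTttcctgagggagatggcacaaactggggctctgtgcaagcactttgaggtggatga
A match is a description of the letters and not evidence of binding.

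The control-only distal peaks were weak among the strong distal peaks. Fold enrichment ran from 6.34 to 19.8 with a median of 7.13. It is the pileup at the summit over the local background of the same library, with a small constant added to both. Shared distal peaks above the same limit had a median of 9.89 and reached 56.6. The median pileup was 9 tags at the summit, with a range of 7 to 41, against 13 tags in shared peaks. The −log10 q value ran from 6.60 to 45.7 with a median of 8.29. What part counting error in either library played in these calls was not tested. Of the members, 621 (27.3%) sat exactly at the limit, at 7 tags, and the next values outside it were 10 peaks at 6.34054. The nearest member to a transcript start was at 3005 bp, and the farthest peak excluded for distance was at 2997 bp.

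The share without an Ngn3-OE peak fell steadily with strength. It was 16.8% (912 of 5440, 95% Wilson interval 15.8 to 17.8) below a fold enrichment of 7 and 5.23% (348 of 6647) between 8 and 10. At 15 or more it was 0.153% (11 of 7210, 0.0852 to 0.273). It rose with distance from transcript starts, from 5.37% (4.98 to 5.79) at 3 to 10 kb to 11.6% (8.72 to 15.3) beyond 200 kb. Chromosomes ranged from 5.53% on chromosome 5 to 7.57% on the X chromosome, with overlapping intervals. Another 16882 control-only distal peaks were below the limit and are not members.

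**Figure D1:**
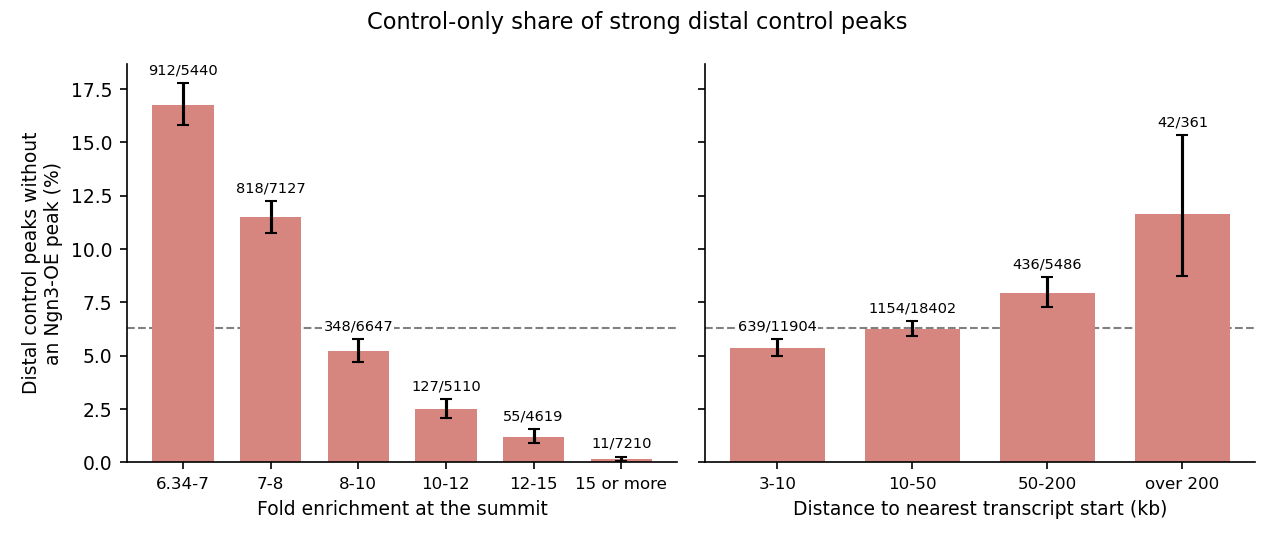
Share (%) of strong distal control peaks with no overlapping Ngn3-OE peak, by fold enrichment (left) and by distance to the nearest transcript start in kb (right). Bars are shares with 95% Wilson intervals, labels give counts, and the dashed line is the share over all such peaks, 6.28%. The share drops from 16.8% in the weakest bin to 0.153% in the strongest.

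The 10 peaks with the highest fold enrichment were spread over 8 chromosomes. The strongest lay between genes at chr3:29701185-29701399, 64.5 kb from the start of Mir21b and 187 kb from that of Egfem1, with a fold enrichment of 19.8 and 26 tags. The second, at chr12:70068987-70069168, lay in an intron of Nin, which encodes the centrosomal protein ninein, with a fold enrichment of 19.5, 41 tags and an OTX/CRX motif. A peak at chr13:60337464-60337668, at 19.2 with 27 tags, had Gas1 as its nearest protein-coding gene, 160 kb away. Gas1 encodes a cell-surface co-receptor for Hedgehog.

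Introns held 5 of the 10, that of Nin included. An intron of Lama4, a laminin chain of basement membranes, held a peak of 18.2 (24 tags). One of Etl4 held a peak of 17.3 (24 tags) with a facing SOX pair, as did one of Ephb1, an ephrin receptor of axon guidance, at 16.6 (20 tags). The peak in Tex15, a germ cell gene, was at 16.5 (20 tags) and carried both a SOX motif and a CATCTG E-box.
The remaining 3 lay between genes, near Gm35521 and Tll1 (15.8, 19 tags), near Gm17745 and Elk3 (15.3, 19 tags) and near Gm41517 and Arid1b (15.2, 27 tags). Among the 10, 4 held the SOX motif, 2 the OTX/CRX motif and 1 the CATCTG E-box.
The gap to the nearest Ngn3-OE peak ran from 1015 bp at the Gas1 peak to 19963 bp at the Lama4 peak.

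Members were about as often intronic as intergenic. Summits fell in introns for 50.3% (48.2 to 52.3), between genes for 47.1% (45.03 to 49.1) and in exons for 2.64%, against 51.0%, 45.2% and 3.78% of shared distal peaks. The Ngn3-OE-only distal peaks were less often intergenic, at 40.7% (38.9 to 42.5). Members were narrower than shared peaks, with a median width of 128 against 170 bp, and had a median GC content of 47.3% against 49.8% within 100 bases of the summit. A soft-masked repeat held the summit of 8.94% (7.83 to 10.2) of members and 6.54% of shared peaks. In Ngn3-OE-only peaks the median width was 112 bp, the median GC content 48.8% and the repeat share 8.91%. The smaller width and larger repeat share were therefore not particular to members. In the genome, 2213 members (97.4%) had 1 place at 95% identity over 90% of their length, and 52 had 2 or more, so reads of those 52 could belong to another copy.

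The distance to the Ngn3-OE peaks was measured for the members alone, with no comparison set. The median gap from a member to the nearest Ngn3-OE peak was 4.83 kb, and 69.5% (1578 of 2271) had one within 10 kb. For 390 (17.2%) it was under 500 bp and for 66 (2.91%) under 100 bp, so that some calls depend on where a peak edge was drawn. In 4 members the gap was 0 bp, with the Ngn3-OE peak adjoining but not overlapping.

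SOX motifs were more frequent in the control-only peaks than in the other sets. Within 100 bp of the summit, 22.0% of members (499 of 2271) held CCATTGT or CCTTTGT, against 10.2% of shared distal peaks and 6.37% of Ngn3-OE-only peaks, all searched over the same length and on both strands. The difference from shared peaks was 11.8 percentage points (Newcombe interval 10.1 to 13.6). It was 3.79 points over all 19153 control-only distal peaks with no limit on fold enrichment and 17.9 points over the 111 in the upper quartile. The SOX core ATTGT, which is part of CCATTGT but not of CCTTTGT, was in 46.2% of members and 29.1% of shared peaks. At least 2 SOX matches were present in 2.51% of members, 0.773% of shared peaks and 0.290% of Ngn3-OE-only peaks.

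The excess was present in each of the 6 bins of fold enrichment. Among members the SOX share was 19.4% below a fold enrichment of 7, 25.6% between 8 and 10 and 30.9% (17 of 55, 20.3 to 44.0) between 12 and 15, while shared peaks in those bins held 8.83%, 10.0% and 10.8%. By GC content the members' share was 21.9% below 45%, 21.4% from 45% to 55% and 24.5% above, against 11.03%, 10.3% and 8.93% of shared peaks. In introns it was 21.5% and between genes 22.7%. SOX matches gathered around the summit, with 31.8% (178 of 560) of the members' matches centred within 20 bp of it, against 23.6% in shared peaks and 17.3% in Ngn3-OE-only peaks.

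The OTX/CRX motif and 3 of the 4 short E-boxes were scarcer in the members than in shared peaks. The OTX/CRX motif GGATTA was in 5.90% of members, 18.5% of shared peaks and 26.8% of Ngn3-OE-only peaks, a difference from shared peaks of -12.6 points (-13.6 to -11.4). The E-box CATCTG was in 17.1%, 25.7% and 31.6% in the same order, a difference from shared peaks of -8.63 points, or -5.11 with no limit on fold enrichment. The longer NGN3 consensus E-box, which contains CATCTG, was in 1.41%, 5.56% and 7.60%. The E-boxes CAGCTG and CAGGTG were also scarcer than in shared peaks, at 18.9% against 23.0% and 8.06% against 11.9%, but CAGCTG stood at 18.6% in Ngn3-OE-only peaks, within counting error of the members. For the E-box CACGTG, in 3.57% of members and 3.81% of shared peaks, the interval of the difference included 0. The motif of CTCF, a factor of chromatin loop boundaries, was in 2.51% of members and 7.62% of shared peaks, but also in only 2.72% of Ngn3-OE-only peaks. OTX/CRX was scarcer in members than in shared peaks in each fold enrichment bin below 15. At 15 or more it was in 2 of 11 members (18.2%, 5.14 to 47.7) and 19.9% of shared peaks. By GC content its shares were 7.72% and 26.25% below 45%, 5.62% and 19.1% from 45% to 55%, and 1.75% and 9.22% above.

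Several motifs of other factors were more frequent, by smaller amounts. TEAD (ACATTCC), bound by the partners of YAP, was in 4.54% of members, 2.50% of shared peaks and 1.92% of Ngn3-OE-only peaks. Below 45% GC its shares were close, at 2.90% of members (1.95 to 4.27) and 2.66% of shared peaks, and they were 5.36% and 2.69% from 45% to 55% and 5.94% and 1.86% above. The AP-1 motif TGANTCA was in 9.16%, 6.29% and 6.08%, and the homeodomain motif TAATTA, read by LHX, VSX and RAX factors, in 13.7%, 10.6% and 8.36%. TAATTA holds only A and T, and members had a lower median GC content than shared peaks. Its shares were not split by GC content. Of the 27 motifs searched, 10 had an interval of the difference from shared peaks above 0, 8 below 0 and 9 included 0. RBPJ, the DNA-binding factor of Notch signalling, was among the last, with GTGGGAA in 4.54% of members and 4.63% of shared peaks.

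**Figure D2:**
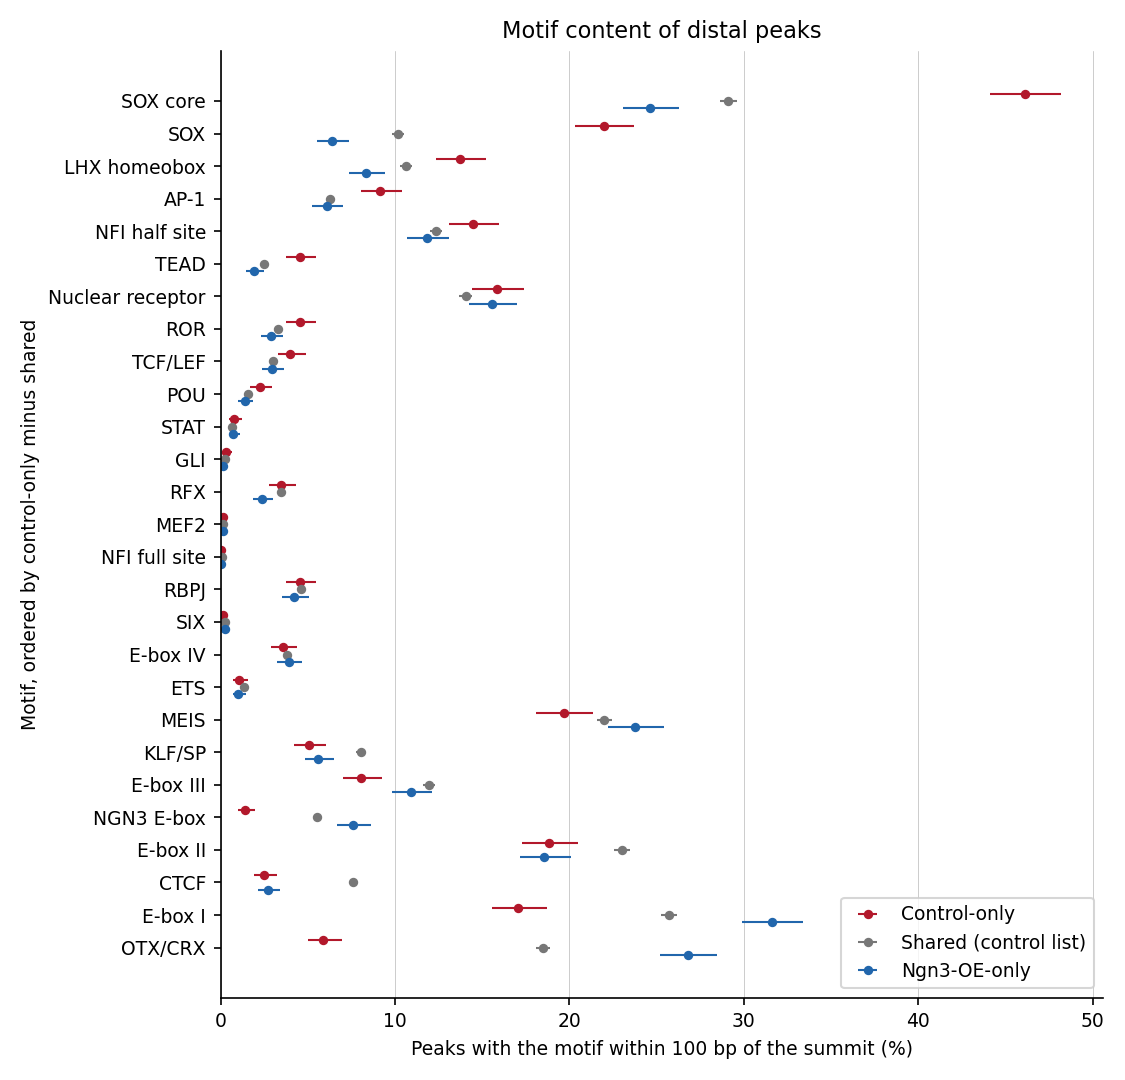
Share (%) of distal peaks with each of 27 motifs within 100 bp of the summit, in control-only, shared and Ngn3-OE-only peaks, with 95% Wilson intervals. E-box I is CATCTG, E-box II is CAGCTG, E-box III is CAGGTG and E-box IV is CACGTG, and motifs are ordered by the control-only minus shared difference. The control-only minus shared difference is largest for the SOX core (46.2% against 29.1%) and SOX (22.0% against 10.2%) at the top, and most negative for OTX/CRX (5.90% against 18.5%) at the bottom.

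The motifs can also be read as the share of strong distal control peaks that were control-only, for which the background is 6.28%. It was 14.4% (13.3 to 15.6) of the 3351 peaks with a SOX and no OTX/CRX motif and 2.03% (1.70 to 2.43) of the 5802 with OTX/CRX and no SOX. Peaks with both stood at 2.70% (16 of 592, 1.67 to 4.34) and those with neither at 6.26%. Peaks with SOX and neither OTX/CRX nor CATCTG reached 16.01% (417 of 2604).

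**Figure D3:**
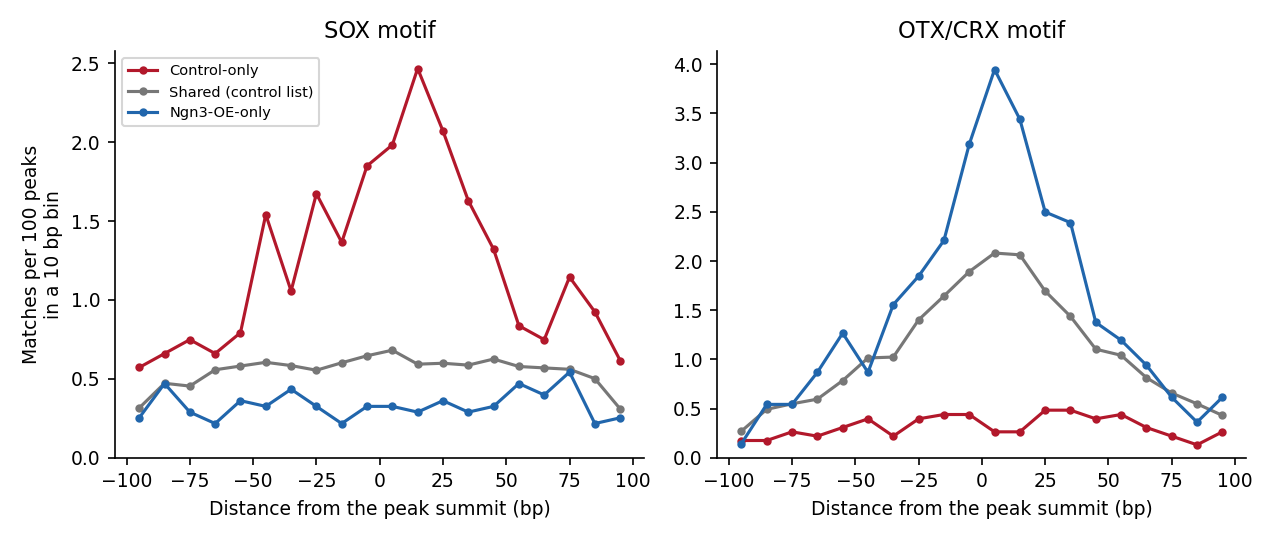
Matches of the SOX (left) and OTX/CRX (right) motif per 100 peaks in 10 bp bins, by distance in bp from the peak summit, for the same 3 peak sets. SOX matches rise toward the summit in control-only peaks, where OTX/CRX matches stay low, and OTX/CRX matches rise toward it in shared and Ngn3-OE-only peaks.

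SOX half-sites, here ATTGT or TTTGT, also occurred in pairs with a set spacing. A facing pair with 5 to 7 bases between the sites was in 97 of 2271 members (4.27%, 3.51 to 5.18), against 297 of 33882 shared peaks (0.877%) and 8 of 2762 Ngn3-OE-only peaks (0.290%). With 10 to 12 bases between them, facing pairs were in 0.837% of members and 0.295% of shared peaks. Sites set back to back at 5 to 7 bases were in 0.881% and 0.384%, and sites in the same direction in 2.11% and 1.02%. The facing pairs with 6 bases were the most frequent single spacing, in 42 members (1.85%, 1.37 to 2.49). Of the 394 strong distal control peaks with a facing pair at 5 to 7 bases, 24.6% (20.6 to 29.1) were control-only, against 6.28% of all. The spacing of 5 to 7 bases was chosen after the values for all spacings up to 15 bases had been seen.

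**Figure D4:**
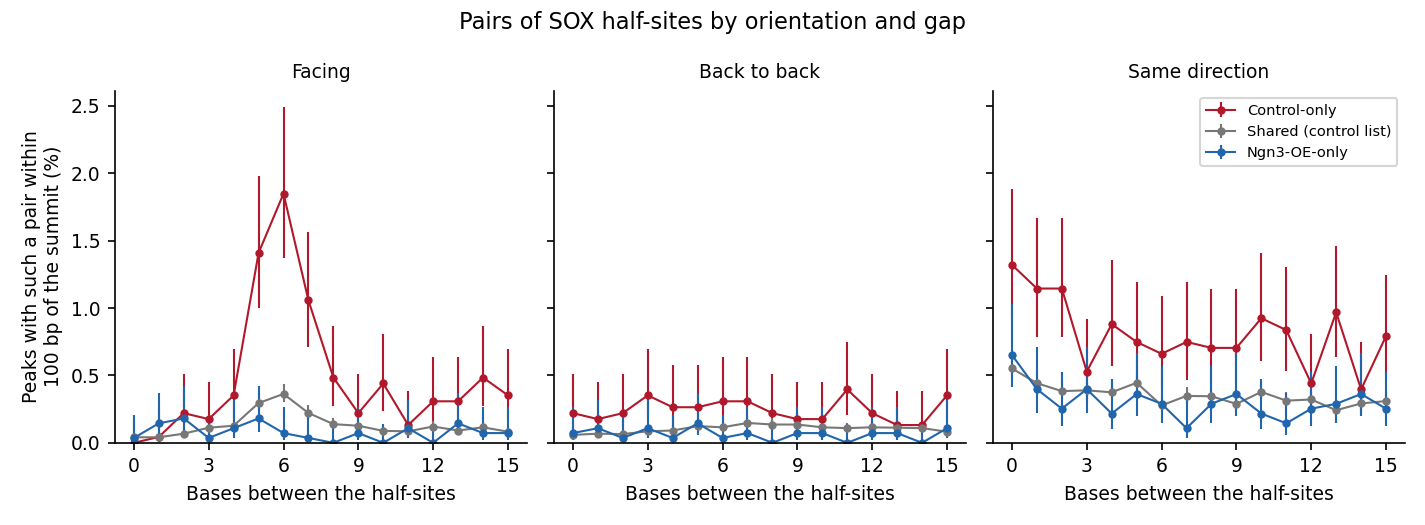
Share (%) of peaks with a pair of SOX half-sites (ATTGT or TTTGT) within 100 bp of the summit, by the number of bases between the sites, for facing, back to back and same-direction pairs, in control-only, shared and Ngn3-OE-only distal peaks with 95% Wilson intervals. Facing pairs in control-only peaks peak at 6 bases (1.85%), with a lower rise at the same spacing in shared peaks (0.363%).

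Members were scattered over many genes. With genes of any biotype they were nearest to 2032 genes, of which 1822 had 1 member and 27 had 3 or more. Gm35521, a gene of unknown function on chromosome 8, had 4 members of 7 strong distal control peaks, at fold enrichments of 6.75, 7.13, 7.55 and 15.8. Ngn3-OE cells had 2 strong distal peaks there, neither of them Ngn3-OE-only. All 4 members at Tanc1, a postsynaptic scaffold gene, were in its introns, at 6.66, 6.91, 8.03 and 9.70, and it had 17 strong distal control peaks. None of the 4 held a SOX or OTX/CRX motif.

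Jag1, a ligand of Notch receptors, had 3 members of 8 strong distal peaks. They had fold enrichments of 10.3, 7.93 and 6.83 and lay 88.6, 21.9 and 12.6 kb from the nearest Jag1 start, the first and second of them inside introns of the neighbouring gene Slx4ip. The one at 7.93 held a SOX motif and a CATCTG E-box and lay only 36 bp from an Ngn3-OE peak. Ncam1, a neural cell adhesion molecule, had 3 of 13, at 6.34, 7.11 and 9.13, of which the last held a SOX motif. Rora, a nuclear receptor gene, had 3 of 18, at 6.34, 7.13 and 10.3, and 2 of these were within 1 kb of an Ngn3-OE peak. Dmd, the dystrophin gene, had 3 of 12, at 6.34, 6.34 and 12.3, each over 30 kb from an Ngn3-OE peak.

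The 15 genes with most members, ties at 3 members ordered by the highest fold enrichment, also included, with 3 each, Map4k4 (9 strong distal peaks), Celf2, an RNA-binding protein gene (9), Lrrc4c, a synaptic adhesion gene (10), and Adamtsl1, a matrix protein gene (7). The unnamed or little-known transcripts 4930589P08Rik (10), 4932435O22Rik (8), Gm40264 (6), Gm37025 (4) and Gm18921 (3) also had 3 members each. The members at 4930589P08Rik were in introns of Camta1, and 2 of the 3 held a SOX motif. All 3 strong distal control peaks nearest to Gm18921 were members.

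By the nearest protein-coding gene, the list changed. Adgrl2, a latrophilin adhesion receptor, had 8 members of 52 strong distal control peaks, with fold enrichments of 6.43 to 11.1, spread over 1334 kb, so that 15.4% (8.01 to 27.5) were control-only. Tenm3, a teneurin that guides visual wiring, had 7 of 41, from 6.34 to 13.4, at distances of 6.95 to 1160 kb from a start. Tcf7l2, a transcription factor of Wnt signalling, had 6 of 25 (24.0%, 11.5 to 43.4), and Dach1, a transcription factor of eye development, 6 of 26. At both Slc25a13 and Arhgef26, 5 of 9 were members. Tll1, a metalloprotease gene, had 4 of 6, the same 4 peaks as at Gm35521, 112 to 206 kb from a Tll1 start. Cxcr4, a chemokine receptor gene, had 4 of 21, at 7.73, 9.51, 10.3 and 12.2, and 3 of these 4 held a SOX motif. Epha4 and Efna5, an ephrin receptor and an ephrin ligand, had 5 of 19 and 5 of 38, and 1 of the Epha4 members, at 7.55, had 122 places in the genome. The other genes in the first 15 were Pik3c3 (5 of 41, at 183 to 1852 kb from a start), Tanc1 (5 of 13), Map3k7 (5 of 32, at 119 to 1174 kb), Ank2 (5 of 26) and Phex (5 of 13). These genes were picked for having most members, so their shares describe them and are no test.

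Few loci held several members. Chaining summits within 50 kb gave 177 loci with 2 or more, 10 with 3 or more and 2 with 4. Loci with 3 or more numbered 3 when summits were chained at 20 kb and 44 at 100 kb. At 50 kb, 16.1% of members were in a locus with another. Of the Ngn3-OE-only distal peaks, 16.7% were in such loci, with 21 of 3 or more.

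In the Tanc1 locus on chromosome 2, the 4 members spanned 32.2 kb of introns, with 18, 9, 10 and 14 tags from the lowest coordinate up. Its other peaks inside the span were 3 shared peaks, none of them strong and distal, 1 weaker control-only peak and 1 Ngn3-OE-only peak. The other locus of 4, on chromosome 5 near Crot and Tmem243, spanned 48.4 kb and held members of 6.34, 9.88, 6.68 and 9.69, of which 2 had a SOX motif, beside 4 shared peaks and 1 Ngn3-OE-only peak.
The shortest of the 10 had 3 members in 12.7 kb of Dclk2 introns at 8.92, 12.1 and 7.13 with no shared peak and 1 Ngn3-OE-only peak inside its span. Dclk2 encodes a microtubule-associated kinase of neurons. The locus near Gm18921 and Abcb5 on chromosome 12 stood apart in a different way, since its members, at 10.3, 7.13 and 6.34, lay 31.7 to 80.5 kb from the nearest Ngn3-OE peak. No other peak of either library lay in its span of 48.9 kb.

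A locus of 3 members lay between Neurod1, a proneural bHLH gene, and Itprid2 on chromosome 2. Its members were at 7.13, 6.34 and 7.13 with 8, 7 and 8 tags, the first of them 71.0 kb from the Neurod1 start, and 2 of 3 held a SOX motif. No shared peak was inside its span, but 2 Ngn3-OE-only peaks were, neither of them strong and distal. The Dlk1 locus on chromosome 12, named for a Notch-related imprinted gene, had members at 7.93, 7.13 and 6.99, of which 2 lay within 1 kb of an Ngn3-OE peak, beside 6 shared peaks and 2 Ngn3-OE-only peaks.
The last 4 loci were in Msi2 introns near Gm11510 on chromosome 11 (6.86, 7.33 and 7.29), at Map4k4 on chromosome 1 (7.93, 6.40 and 8.77), near Shisal2a and Gpx7 on chromosome 4 (7.44, 6.60 and 8.72) and near Ttc29 on chromosome 8 (6.34, 12.5 and 6.34). Msi2 encodes an RNA-binding protein of stem and progenitor cells. None of the 10 loci held an Ngn3-OE-only distal peak at or above the limit.

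**Figure D5:**
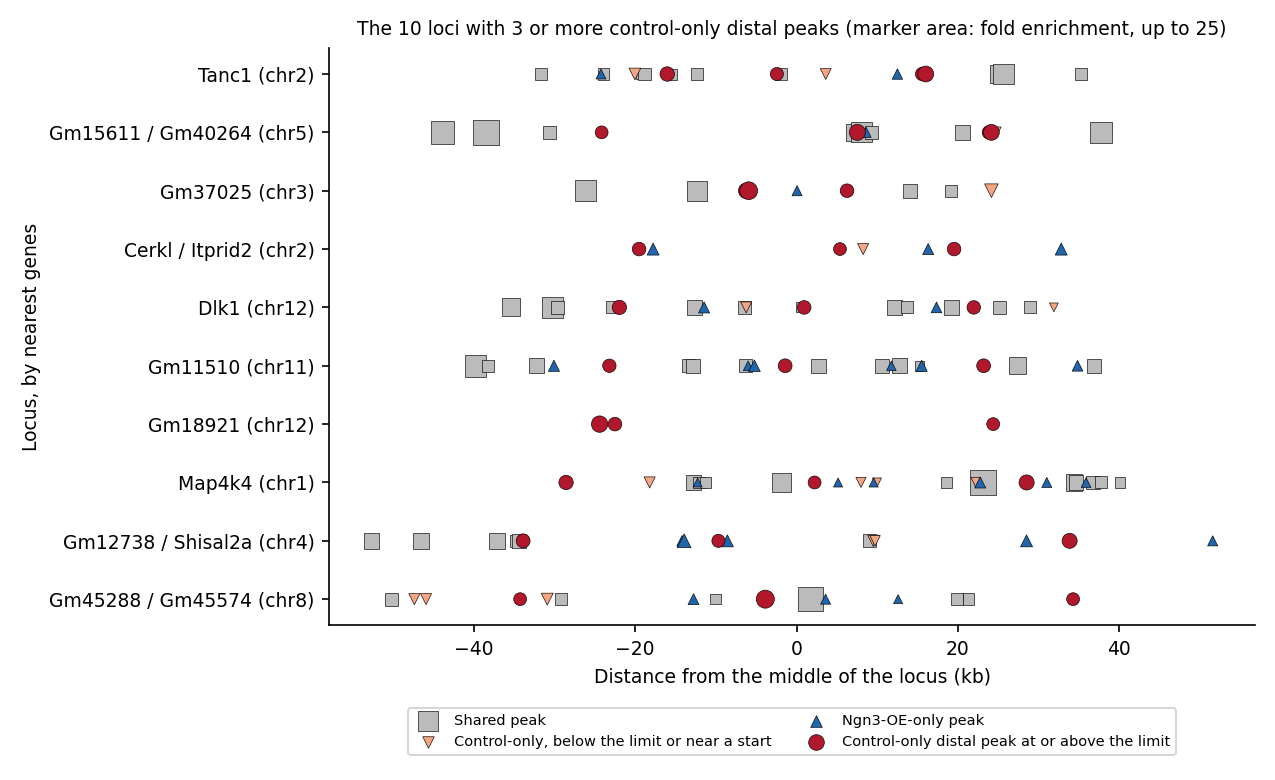
Peaks in and around the 10 loci with 3 or more members, each placed by its distance in kb from the middle of its locus. Circles are members, squares shared peaks, downward triangles other control-only peaks and upward triangles Ngn3-OE-only peaks, and marker area follows fold enrichment. The locus near Gm18921 holds its 3 members alone, and shared peaks lie among the members at Dlk1 and Gm11510.

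Of the 2271 members, 89 (3.92%) were nearest to a gene on the 16 lists of 583 retinal, signalling and other genes, beside 3.33% of all strong distal control peaks. By the nearest protein-coding gene the count was 219 (9.64%), beside 8.05%. The SOX motif was in 20 of the 89 (22.5%), close to its share in all members. Against the background of 6.28%, 1 list had a share of control-only peaks whose interval lay above it and none had one below. This was the list of extracellular matrix and adhesion genes, with 23 of 181 (12.7%, 8.62 to 18.4). By the nearest protein-coding gene it had 34 of 345 (9.86%, 7.14 to 13.5), and the axon guidance list, at 42 of 480 (8.75%, 6.54 to 11.6), was also above, against 14 of 230 (6.09%) for genes of any biotype. Ngn3-OE-only shares by the nearest protein-coding gene were 9.19% and 8.80% for the same 2 lists, and for genes of any biotype 6.78% (3.92 to 11.5) and 6.70%, beside 7.22% overall.

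Among matrix and adhesion genes, 17 of 63 had a member. Over all genes, 2032 of the 16765 nearest to a strong distal control peak had one. The number of such peaks per gene was not taken into account in either count. Itgb5, an integrin subunit, had 3 of 9 with the highest at 7.93, Tnr, which encodes tenascin-R, 2 of 7 with the highest at 7.13, and Gpc6, a glypican, 2 of 14, both at 6.34. Among axon guidance genes, Slit3 had 2 members of 11 (highest 9.02, with a SOX motif), Sema5a 2 of 11 (8.13), Efna5 2 of 16 (7.45) and Dcc, the netrin receptor, 2 of 8 (8.72), with 3 Ngn3-OE-only peaks beside them.

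For the lists of signalling genes the intervals included 6.28%. Notch pathway genes had 5 of 44 (11.4%, 4.95 to 24.0), with Notch1 itself at 9.72 in an intron 5.08 kb from a start and Dtx4 at 6.39 with a SOX motif 238 bp from an Ngn3-OE peak, beside Jag1. By the nearest protein-coding gene it was 8 of 109 (7.34%). In Ngn3-OE the same list had 0 of 41 for genes of any biotype, with a Wilson upper bound of 8.57%. By the nearest protein-coding gene it had 1 of 95 (1.05%, 0.186 to 5.72), below the 7.22% of all strong distal Ngn3-OE peaks. With 16 lists compared under both ways of assigning genes, such an interval can arise by counting error alone. Hedgehog, Wnt and FGF genes had 8 of 120 (6.67%), including 3 at Tcf7l2, one at Lrp6, a Wnt co-receptor (11.6), one at Cdon (7.02) and one at Axin2 (6.93). TGF-beta and BMP genes had 5 of 97 (5.15%), with Bmpr1b at 10.3, Bmper at 8.72, Smurf2 at 7.62 and Smad3 at 6.72.

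The same held for glial and progenitor genes. Müller glia genes had 3 of 68 (4.41%, 1.51 to 12.2), with single members at Cd9 (10.3), Spon1 (7.93) and Pdpn (6.34). By the nearest protein-coding gene they had 7 of 96 (7.29%, 3.58 to 14.3), among them a peak of 14.7 with 30 tags 61.3 kb from the start of Glul, the glutamine synthetase gene. The glial and stem cell transcription factors had 0 of 25 for genes of any biotype, with a Wilson upper bound of 13.3%, and 14 of 200 by the nearest protein-coding gene, 4 of them at Sox9 (28 strong distal peaks) and 2 each at Hes1, Id2 and Id4. SOX genes had 4 of 43 (9.30%, 3.68 to 21.6), at Sox5, Sox6 and Sox18, the strongest of them in Sox5 at 8.53 and only 139 bp from an Ngn3-OE peak. Eye field and progenitor transcription factors had 6 of 75, 2 at Meis2, 2 at Casz1, one at Lhx9 (9.47, with a SOX motif) and one at Tbx5 (7.30). Cell cycle genes had 3 of 60 (5.00%), 2 at Ccnd3 and one at Ccnd1, whose peak touched an Ngn3-OE peak.

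Intervals of the neuronal lists also included 6.28%. Photoreceptor genes had 4 of 72 (5.56%), at Prph2 (8.05), Rorb (7.09), Guca1a (6.995) and Mef2c (6.34). Bipolar cell genes had 5 of 53 (9.43%, 4.10 to 20.3), at Nrxn3 (2 members), Kcnma1, Lrit3 and Trpm1. Amacrine, horizontal and ganglion cell genes had 6 of 75, including one each at Nefl, Ebf1 and Gap43, the last with 83 places in the genome. The list headed proneural bHLH genes had 4 of 48 (8.33%), at Myt1l (2 members, the higher at 7.33), Neurod6 (6.72) and Tcf4 (6.34). Myt1l is on this list but is not a bHLH gene, so 2 of these 4 members do not lie at one. The AP-1 and immediate early genes had 0 of 24, with a Wilson upper bound of 13.8%, and 1 of 72 (1.39%) by the nearest protein-coding gene. The genes of vascular, microglial, pigment and mesenchymal cells had 1 of 46 (2.17%), at Mitf, and 6 of 121 (4.96%) by the nearest protein-coding gene.

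Promoters of marker genes were checked against the cell labels. A peak within 1 kb of a start was present at 8 of 8 progenitor markers and 4 of 4 rod markers in each library. Of 4 Müller glia markers all had one in control and 3 in Ngn3-OE, which lacked one at Aqp4, a water channel gene. Of 10 markers of other cell types, 3 had a peak in control and 4 in Ngn3-OE. Pmel, Col1a1 and Pdgfrb had one in both libraries, and Csf1r in Ngn3-OE but not in control. None was present at Pecam1, Cdh5, Cx3cr1, Ptprc, Rpe65 or Tyr in either. Within 10 kb of Neurog3 the control list had no peak, and the Ngn3-OE list had 1 with 1591 tags, which cannot be told apart from plasmid DNA.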

How the data were processed

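ATAC-seq peaks of the 2 libraries were used as deposited. Per the labels and the study's methods, the authors trimmed reads with Trimmomatic, aligned them to mm10 with Bowtie2, removed duplicates (Picard), mitochondrial reads (SAMtools) and blacklisted regions (bedtools), kept short fragments, shifted the Tn5 ends (deepTools) and called peaks with MACS2 in each library separately. The deposited lists give an integer score, a fold enrichment (a ratio to the local background, not normalised between libraries), q-values and p-values as −log10, and the offset of the summit. Read depth is not given in the lists. The score was not used for any result.

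After lines off chromosomes 1 to 19, X and Y were dropped, lines with the same interval were merged to the line with the highest fold enrichment (128853 lines to 117165 intervals in control, 136761 to 124935 in Ngn3-OE). Tags at the summit were solved from the fold enrichment and −log10 p-value and came out whole for every peak (residual at most 0.0019). Transcript starts came from GENCODE release M21 (comprehensive), sequence and repeats from RefSeq GRCm38. Motifs were searched as exact letters on both strands within 100 bp of summits, and copies with blastn 2.17.0. The motif set compared against members was the 33882 shared strong distal control peaks. Shares carry 95% Wilson and differences 95% Newcombe intervals, which ignore that neighbouring peaks are not independent. The scripts (Python 3.11.15, numpy 2.4.6, pandas 2.3.3) were tested on simulated data.

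Named peaks and genes are the 10 members with the highest fold enrichment, the 15 genes nearest to most members, the 10 loci with most members and up to 4 genes per list, plus those shown for facing pairs. No sequence is shown for peaks on chromosome 18. The members, gene lists and motifs were chosen with earlier results of these data known. Groups were taken from the sample titles. Alternatives are given under the closing heading. The authors' differential regions were not used here.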

Additional observations from a re-analysis of the deposited data

How the results depend on the processing

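The 118 recomputed values included 32 that moved beyond counting error, or beyond 1.5 times for counts. They leave out 22 values under a limit of 5 on −log10 q, which removed no peak and repeats the reported values by construction. They include a choice of line by q-value instead of fold enrichment, which again gave 2271 members and nearly the same shares. Only the motif differences could change sign, as counts and shares cannot, and none did. The SOX difference from shared peaks stayed above 0 in 15 of 15 settings and the CATCTG difference below 0 in 14 of 14. With the upper quartile of fold enrichment as the limit, 111 peaks (0.783%) were control-only, 28.8% of them with SOX (difference 17.9 points) and 14.4% with CATCTG (-11.6). With no limit, 19153 (25.7%) were, with 13.1% (3.79) and 21.3% (-5.11). Strictly above the median, which was chosen after seeing the data like the basic annotation and the exclusion of masked summits, the control-only share was 5.01% and CATCTG 15.4% (-10.2). The share was 5.203% with no Ngn3-OE peak within 500 bp, 6.73% at 10 kb from a start and 5.99% with protein-coding starts. Counting a peak as shared only where the overlap covered 50% of it gave 4041 peaks (11.2%). Windows of 50 bp gave SOX 14.97% (9.40) and CATCTG 10.7% (-5.67), windows of 250 bp 31.4% and 33.8%, and the SOX core 46.2% (17.0). Chaining at 20 or 100 kb gave 3 or 44 loci. With protein-coding genes only, 45.1% of members were intronic and 52.7% intergenic. No gene-list share moved beyond its interval. No paired analysis was possible because each group had 1 library, and for the same reason no replicate could be left out. The number of tags at the summit limits what can be called: a member at 7 tags is 1 call in 1 library.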
